A study of Mus musculus with 6 samples.

Results

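The neurotrophins and the ligands of the GDNF family, with the receptors that read them, were followed in injured mouse spinal cord through 8 genes: the ligands Bdnf, Ntf3 and Gdnf and the receptors Ntrk2, Ntrk3, Ngfr, Gfra1 and Ret. They were taken by gene name from tables of 36629 genes, and each name matched 1 row. The 6 libraries of polyadenylated RNA were made from cord segments T8 to T12 of C57/BL6 mice, 3 days after surgery. The mice were 3 to 5 weeks old and weighed 18 to 20 g. In the sham group (3 libraries) the muscle over T9 and T10 was cleared and the bone over the cord opened (laminectomy). In the SCI group (spinal cord injury, 3 libraries) the exposed cord was also crushed for 5 s with a vascular clip of 60 g force. Sex, and whether a library came from 1 animal or a pool, were not given in the sources used here, so p-values measure the spread between these libraries, which may be partly technical.

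Neurotrophins are secreted as precursors and cut to mature dimers. Mature BDNF acts on TrkB (the product of Ntrk2) and neurotrophin-3 on TrkC (Ntrk3), both receptor tyrosine kinases that keep neurons alive and support their axons and synapses. The p75 receptor (Ngfr) binds every neurotrophin, and with sortilin it binds the uncut precursors and can signal cell death. GDNF uses a different pair, a lipid-anchored co-receptor, GFRα1 (Gfra1), that presents the ligand to the kinase Ret, and it is known as a survival factor of motor neurons. In the adult cord, Ret and Gfra1 are known from motor neurons, Ntrk2 from neurons and, as a form without the kinase, from astrocytes, and Ngfr and Gdnf from Schwann cells that have lost their axons.

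Values are FPKM (fragments scaled by gene length and library size), and changes are SCI minus sham on log2(FPKM + 1), tested with limma over 17435 genes and adjusted with the Benjamini-Hochberg method. The threshold was an adjusted p of 0.05, and this scale understates the change of low genes. FPKM summed to between 716215 and 734791 per library, 16774 to 17202 genes reached 1 FPKM, and the number of reads behind the values is unknown. The injured libraries were not alike. The 4 haemoglobin genes held 0.11% to 0.13% of the FPKM in sham and 0.66%, 6.16% and 0.21% in SCI replicates 1, 2 and 3. Markers of sensory ganglion neurons, cells that lie outside the cord, summed to 14.6 to 17.1 FPKM in sham, to 11.3 and 5.84 in SCI replicates 1 and 2, and to 53.0 in SCI replicate 3. Of the sham sums 1 marker, Prrxl1, held 6.65 to 7.57 FPKM, while Scn10a and Mrgprd were at 0 in sham. Whether the sham level came from ganglion cells was not tested. For the 8 genes, calls or changes that move by over 1.5 times without either library are given with and without it.

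Of the 8 genes, 7 reached 1 FPKM in at least 3 of the 6 libraries and were tested. Gdnf met this filter only through its SCI libraries, so it could enter the tests only as a gene higher in SCI. Gdnf, Ngfr and Gfra1 rose, Ntrk2 and Ntrk3 fell, and Bdnf and Ret did not pass. Across all genes tested 57.5% passed, 26.7% as higher and 30.8% as lower, so 5 of 7 is close to the share of the whole transcriptome. The sham and SCI libraries did not overlap for those 5 genes, against 67.6% of all genes tested (30.7% with SCI higher and 36.9% with SCI lower). Without SCI replicate 2 the count was again 3 higher and 2 lower. Without SCI replicate 3 it was 3 higher and 3 lower, as Ret then passed.

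In sham cord the receptors of both systems were far more abundant than the ligands. Gfra1 (42.0 ± 3.85 FPKM, SD, n = 3), Ntrk2 (41.4 ± 2.68) and Ret (38.7 ± 2.70) stood together at the top, with overlapping libraries. Ntrk3 (10.2 ± 0.596) came next, then Ngfr (3.63 ± 1.33) and Bdnf (2.30 ± 0.136), which overlapped. Ntf3 and Gdnf were at the bottom, at no more than 0.56 FPKM in any sham library. In injured cord Gfra1 stood alone at the top (76.5 ± 17.7), clear of Ret (33.4 ± 10.6), Ntrk2 (27.9 ± 2.34) and Ngfr (20.6 ± 10.6). Each of those last 3 overlapped the next in the order, and Ngfr overlapped Gdnf. Gdnf (7.95 ± 6.65) overlapped Ntrk3 (6.61 ± 0.673), and Bdnf (2.31 ± 0.918) lay below both. FPKM is a value per length of gene model, so these levels can be set side by side, but only roughly. The forms of each gene are not separated, and the strand setting of the counting is unknown.

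**Figure D1:**
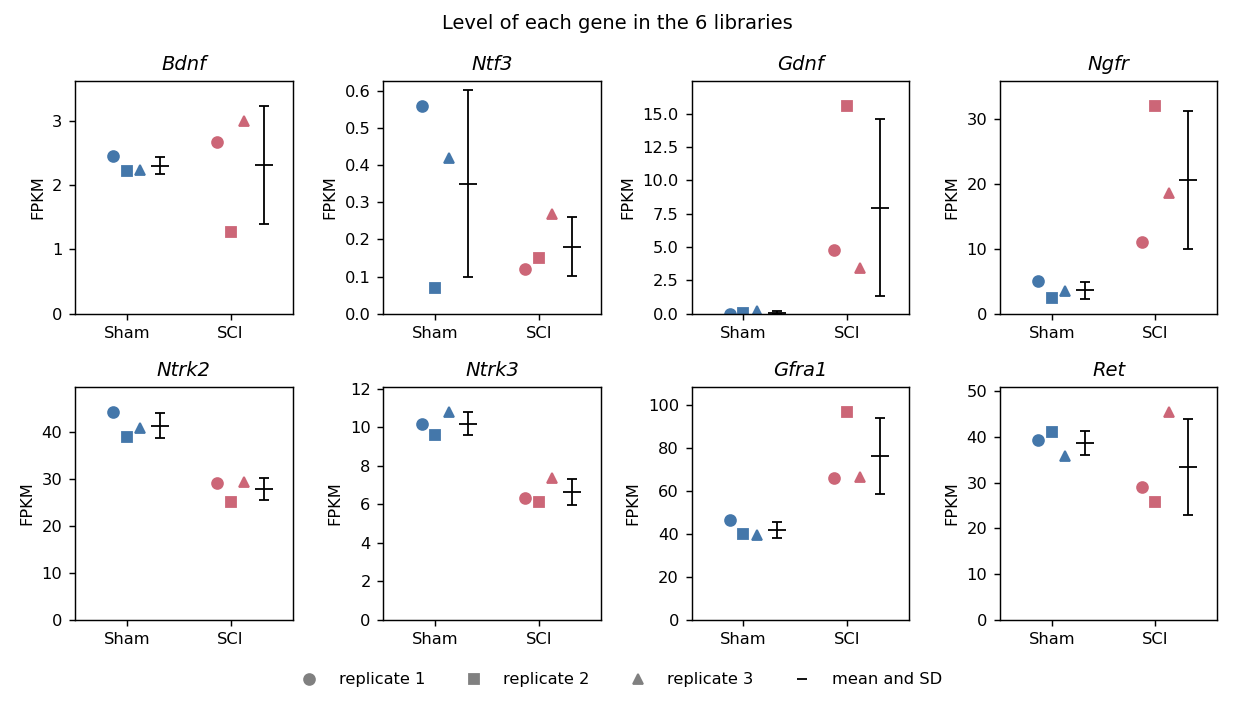
Level in FPKM (y axis, linear, from 0, with a separate scale for each gene) of the 8 genes in the sham and SCI libraries. Points are libraries, with a shape for each replicate number, and bars are the mean and SD of 3 libraries. Gdnf, Ngfr and Gfra1 are higher and Ntrk2 and Ntrk3 lower in every SCI library than in any sham library, while Bdnf, Ntf3 and Ret overlap.

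Gdnf, the ligand of GFRα1 and Ret, was close to absent from sham cord and present in every injured library. It was listed at 0, 0.04 and 0.20 FPKM in sham replicates 1, 2 and 3 and at 4.81, 15.6 and 3.45 in SCI replicates 1, 2 and 3. The lowest injured library was far above the highest sham library, and SCI replicate 2 was well above the other injured libraries. The change was 2.81 on the log2(FPKM + 1) scale (SE 0.45, limma adjusted p = 0.0018), and 2.24 (adjusted p = 2.3e-04) without SCI replicate 2. No fold is given, since 1 sham library is listed at 0. On GRCm38 the gene (ENSMUSG00000022144) spans chromosome 15 from 7810846 to 7837575 on the plus strand, and no other gene of the files overlaps it.

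Gfra1, the ligand-binding co-receptor, rose with its ligand from a level that was already high. It was at 46.5, 39.9 and 39.7 FPKM in sham replicates 1, 2 and 3 and at 66.2, 96.9 and 66.4 in the SCI replicates, a 1.82-fold rise. As for Gdnf, SCI replicate 2 held the highest value and the other injured libraries were nearly equal. The change was 0.83 (SE 0.16, limma adjusted p = 0.0036), and 0.65 (adjusted p = 9.7e-04) without SCI replicate 2. Gfra1 (ENSMUSG00000025089) lies on the minus strand of chromosome 19, from 58235604 to 58455398.

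Ret, the kinase that GFRα1 presents GDNF to, did not pass, and its injured libraries disagreed. It was at 39.4, 41.0 and 35.8 FPKM in sham cord. In SCI replicates 1 and 2 it was lower, at 29.1 and 25.7, while SCI replicate 3, at 45.5, was above every sham library. The change over all libraries was −0.25 (95% interval −0.71 to 0.21, limma adjusted p = 0.31). Without SCI replicate 3 it was −0.49 (adjusted p = 0.0079), and without SCI replicate 2 it was −0.09 (adjusted p = 0.70). Ret (ENSMUSG00000030110) lies on the minus strand of chromosome 6, from 118151745 to 118197718.

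Ret is made by motor neurons and also by sensory ganglion neurons, and markers of both moved in the same libraries. Of the other 7 motor neuron markers, 6 were lower and none higher, and their summed level was 191 to 248 FPKM in sham, 44.2 and 27.2 in SCI replicates 1 and 2, and 102 in SCI replicate 3. Most of the injured sums was 1 gene, Prph, at 28.7, 14.9 and 74.5 FPKM in SCI replicates 1, 2 and 3 (81.0 to 106 in sham). Each of the 7 peaked in SCI replicate 3 among injured cords, although their sum there still lay below the sham range. Of 9 sensory ganglion markers, 8 had their top injured value in SCI replicate 3, and none of the 5 that could be tested passed. Prrxl1, the most abundant of the 9, was the exception, at 5.95, 2.08 and 4.89 FPKM in SCI replicates 1, 2 and 3. Each of these was below its sham values of 6.65 to 7.57. Named after its values were seen, Pou4f1 was at 3.75 FPKM in SCI replicate 3, within its sham range of 2.41 to 4.24. Avil, an actin-binding protein of sensory neurons, was at 17.3 FPKM in SCI replicate 3 and at no more than 0.50 elsewhere. Chosen after their values were seen, Scn10a, a sodium channel of pain-sensing neurons, was at 6.60 FPKM and Mrgprd, a receptor of a class of skin-sensing neurons, at 1.96 in SCI replicate 3, and both were at 0 in the other 5 libraries. The part of these cells in the value of Ret was not tested.

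**Figure D2:**
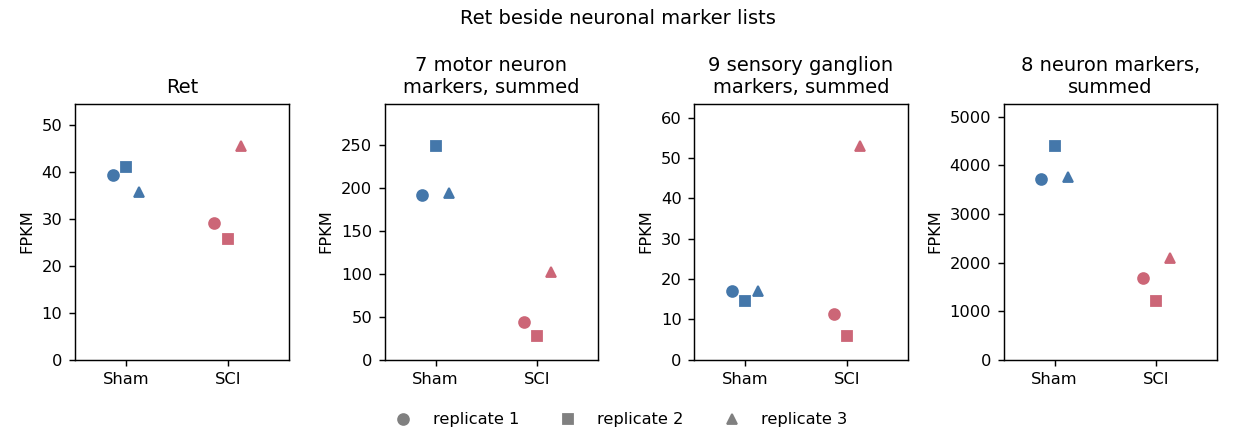
Level in FPKM (y axes, linear, from 0) of Ret, and the summed FPKM of 7 motor neuron markers (Ret left out), 9 sensory ganglion neuron markers and 8 general neuron markers, in each library; shapes give the replicate number. SCI replicate 3 is the highest injured library in all 4 panels, and in the sensory ganglion panel it reaches 53.0 against 14.6 to 17.1 in sham.

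Ngfr, the p75 receptor, had the largest rise of any receptor among the 8 genes. It was at 5.04, 2.41 and 3.44 FPKM in sham replicates 1, 2 and 3 and at 11.0, 32.1 and 18.7 in SCI replicates 1, 2 and 3. Every injured library was above every sham library, and the injured libraries spread over a wide range. The rise was 5.67-fold, or 2.14 on the log2 scale (SE 0.37, limma adjusted p = 0.0024), and it was 1.77 (adjusted p = 0.0032) without SCI replicate 2. Ngfr (ENSMUSG00000000120) lies on the minus strand of chromosome 11, from 95568818 to 95587735, with no overlapping gene.

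Markers of cell types that could carry p75 differed from list to list. Of 9 Schwann cell markers, 2 were higher and 2 lower, and their sums overlapped, at 153 to 279 FPKM across sham and 136 to 182 across injured cords. Sox10, which did not pass, held 67.0 to 68.9 FPKM of the sham sums and 47.2 to 64.0 of the injured ones. Among fibroblast and meningeal markers 6 of 8 were higher and 1 was lower, with sums of 593 to 684 FPKM in sham and 604 to 776 in injured cord. The overlap rested on Ptgds, a prostaglandin synthase, which fell from 543 ± 17.5 to 232 ± 70.8 FPKM. Without it the other 7 summed to 55.3 to 121 FPKM in sham and 317 to 624 in injured cord, well apart. SCI replicate 2 held the top injured value of 6 of these 8. Of pericyte and smooth muscle markers, 3 of 8 were higher and 1 lower, and the sums were 190 to 222 and 306 to 379 FPKM. Without Tagln, a smooth muscle actin-binding protein that rose from 15.1 ± 3.66 to 142 ± 37.4 FPKM, the sums overlapped, at 179 to 207 and 176 to 201. These sums without 1 gene, and that of the astrocyte list below, were chosen after the values were seen. No marker of these 3 lists was at 0 in any library, and their part in the rise of Ngfr and Gdnf was not tested.

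Ntrk2, which encodes TrkB, fell in every injured library. It was at 44.3, 39.0 and 41.0 FPKM in sham replicates 1, 2 and 3 and at 29.1, 25.2 and 29.3 in the SCI replicates. The groups were well apart and each was tight, and SCI replicate 3 did not stand out as it did for Ret. The fall was 1.49-fold, with a log2 change of −0.56 (SE 0.09, limma adjusted p = 0.0019). Values are totals over the gene. GENCODE M21 lists 7 protein-coding transcripts of Ntrk2, with reading frames of 466 to 821 codons, and the full-length kinase and the forms without it cannot be told apart here. In pieces of cord, fewer cells of a type and less RNA per cell cannot be told apart either.

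Ntrk3, which encodes TrkC, fell as well. It was at 10.1, 9.59 and 10.8 FPKM in sham cord and at 6.34, 6.12 and 7.38 in SCI replicates 1, 2 and 3, again with no overlap. The fall was 1.54-fold, with a log2 change of −0.56 (SE 0.10, limma adjusted p = 0.0030). Leaving out any 1 library gave changes from −0.63 to −0.51 for Ntrk3 and from −0.60 to −0.49 for Ntrk2. Ntrk2 (ENSMUSG00000055254) spans 58806569 to 59133970 on chromosome 13 (plus strand), and the genes that overlap it reached no more than 0.08 FPKM. Ntrk3 (ENSMUSG00000059146) lies on the minus strand of chromosome 7, from 78175959 to 78738012. It contains Gm9885 on the opposite strand, at 0.85 to 3.96 FPKM, and the strand setting of the counting was not given, so reads of that stretch may be shared.

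Markers of neurons and astrocytes, the cells that TrkB is best known from, were examined beside Ntrk2. Of 8 neuron markers, 7 were lower and none higher, and their sum was 3723 to 4395 FPKM in sham and 1214 to 2101 in injured cord. Of 8 astrocyte markers, 4 were higher and 4 lower, and the sum was 2239 to 2440 FPKM in sham and 3831 to 4040 in injured cord. Gfap, the filament protein of astrocytes, rose from 641 ± 116 to 2781 ± 63.0 FPKM, by more than the whole sum. Without Gfap the other 7 markers summed to 1616 to 1855 FPKM in sham and to 1104 to 1273 in injured cord, with no overlap. Most of that sham sum was 1 gene, Aldoc, which fell from 1094 ± 134 to 549 ± 72.2 FPKM. Of the 7, 3 were higher and 4 lower, so the lower sum does not describe the whole list. Ntrk2 fell by less than the median of the neuron list, which was −1.21. That difference was not tested, nor was the part of either cell type in the fall of Ntrk2.

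Bdnf, the ligand of TrkB, showed no shift in its mean, but its injured libraries spread. It was at 2.46, 2.22 and 2.23 FPKM in sham cord and at 2.67, 1.27 and 3.00 in SCI replicates 1, 2 and 3. SCI replicate 2 was the lowest of all 6 libraries and the other injured libraries were above every sham library. The change was −0.04 (95% interval −0.55 to 0.48, limma adjusted p = 0.90). Its sign was not stable: without SCI replicate 2 the change was 0.21 (adjusted p = 0.19), without SCI replicate 3 −0.19, and median-ratio scaling gave 0.02. Bdnf (ENSMUSG00000048482) spans 109674700 to 109727007 on chromosome 2 (plus strand). RefSeq gives it 7 start sites, which the totals do not separate.

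Ntf3, the ligand of TrkC, was too low to test. It was at 0.56, 0.07 and 0.42 FPKM in sham cord and at 0.12, 0.15 and 0.27 in the SCI replicates, and the groups overlapped. With no filter on low values its log2 change was −0.18 (limma adjusted p = 0.45). The gene (ENSMUSG00000049107) lies on the minus strand of chromosome 6, from 126101412 to 126166715.

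**Figure D3:**
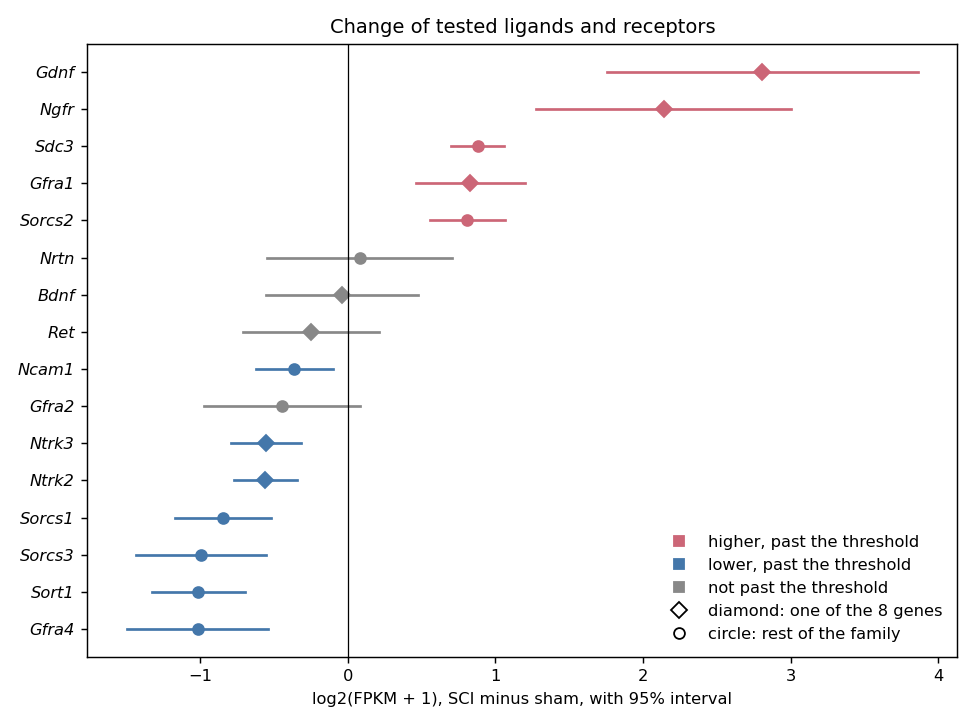
Change in log2(FPKM + 1), SCI minus sham (x axis), for 16 tested genes of the neurotrophin and GDNF systems, with limma's 95% interval. Diamonds are the 8 genes described above apart from Ntf3, which was too low to test, circles are the rest of the family, and colour gives the call. Gdnf (2.81) and Ngfr (2.14) lie farthest to the right.

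Ratios within a library do not depend on how libraries are scaled, and they show how the balance of receptors moved. In sham cord Ngfr was at 0.114, 0.0618 and 0.0839 of the level of Ntrk2. In SCI replicates 1, 2 and 3 it was at 0.379, 1.27 and 0.638 of it, so that the FPKM of Ngfr passed that of Ntrk2 in SCI replicate 2. With 0.1 FPKM added to each gene, the log2 ratio was 2.97 higher in SCI libraries (exact permutation p = 0.10, two-sided, n = 3 per group). The smallest p that 3 against 3 allows is 0.10, so no ratio can pass. Ngfr against Ntrk3 gave 3.02 (exact permutation p = 0.10).

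The GDNF pair shifted in the same direction as its ligand. The log2 ratio of Gdnf to Gfra1 was 4.49 higher in SCI libraries and did not overlap between groups. That size depends on the amount added: it was 1.98 with 1 FPKM and 6.24 with 0.01. Gfra1 and Ret were nearly level in sham cord, with ratios of 1.18, 0.973 and 1.11. In SCI replicates 1, 2 and 3 there was 2.28, 3.77 and 1.46 times as much Gfra1 as Ret, a log2 difference of 1.10 with no overlap. By contrast, Ntrk2 to Ntrk3 stayed between 3.80 and 4.37 in sham and between 3.97 and 4.59 in SCI libraries, which overlap. Ntf3 to Ntrk3 (0.11 higher, and −0.03 without SCI replicate 3) overlapped as well. Bdnf to Ntrk2 was at 0.0556, 0.0570 and 0.0544 in sham cord, and the SCI replicates gave 0.0917, 0.0505 and 0.102. It was 0.49 higher on the log2 scale and overlapped only through SCI replicate 2. The difference was 0.79 without SCI replicate 2 and 0.31 without SCI replicate 3. Of the 7 pairs, those with Ngfr, Gdnf/Gfra1 and Gfra1/Ret had the smallest possible p, and the exact permutation p was 0.40 for Bdnf/Ntrk2, 0.90 for Ntf3/Ntrk3 and 0.60 for Ntrk2/Ntrk3.

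**Figure D4:**
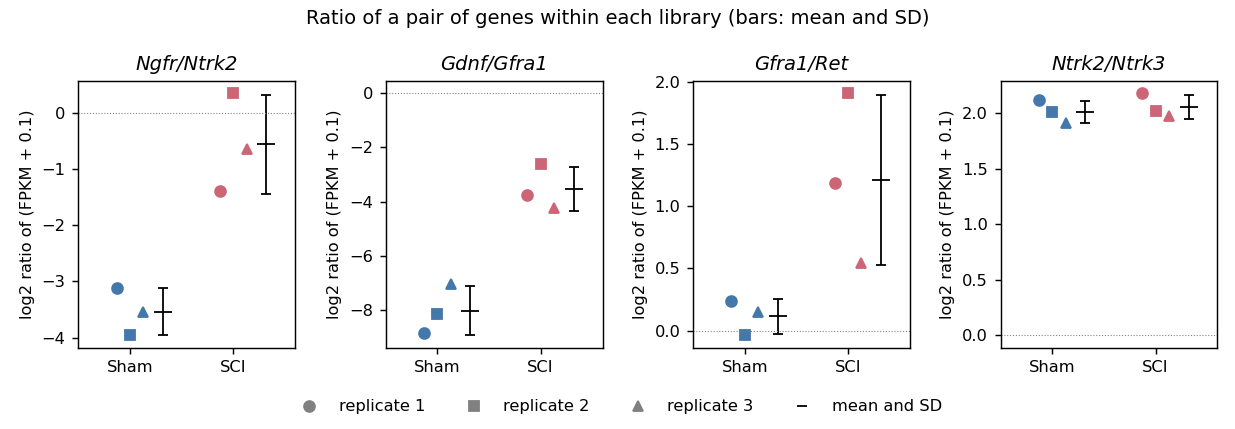
Log2 ratio of (FPKM + 0.1) within each library (y axes, log2 scale, each with its own range) for 4 pairs of genes, in sham and SCI libraries; shapes give the replicate number and bars the mean and SD of 3 libraries. Ngfr/Ntrk2, Gdnf/Gfra1 and Gfra1/Ret are higher in every SCI library than in any sham library, and Ntrk2/Ntrk3 overlaps.

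The stretches just before the start sites of Gdnf and Ngfr, which rose, and Ntrk2, which fell, are shown to let the base composition and motifs be compared. They are RefSeq starts on GRCm38.p6, found for 6 of the 8 genes. For Gfra1, which also rose, annotated exons left no usable window, so none was searched. Windows are read 5′ to 3′ on the strand of the gene, and capitals mark a match to a searched motif. For Gdnf the window is chr15:7809798-7810047 (plus strand), for Ngfr chr11:95587736-95587948 (minus strand, without 37 bases that an annotated exon covers) and for Ntrk2 chr13:58806319-58806568 (plus strand).
Gdnf: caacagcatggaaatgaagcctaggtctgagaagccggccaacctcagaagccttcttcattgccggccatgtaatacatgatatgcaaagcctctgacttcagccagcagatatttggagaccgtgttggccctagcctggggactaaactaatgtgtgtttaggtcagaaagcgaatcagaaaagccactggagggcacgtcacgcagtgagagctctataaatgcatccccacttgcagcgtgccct
Ngfr: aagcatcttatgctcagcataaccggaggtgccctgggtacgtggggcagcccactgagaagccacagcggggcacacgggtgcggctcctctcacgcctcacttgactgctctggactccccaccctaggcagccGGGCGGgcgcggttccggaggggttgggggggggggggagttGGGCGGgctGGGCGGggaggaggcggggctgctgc
Ntrk2: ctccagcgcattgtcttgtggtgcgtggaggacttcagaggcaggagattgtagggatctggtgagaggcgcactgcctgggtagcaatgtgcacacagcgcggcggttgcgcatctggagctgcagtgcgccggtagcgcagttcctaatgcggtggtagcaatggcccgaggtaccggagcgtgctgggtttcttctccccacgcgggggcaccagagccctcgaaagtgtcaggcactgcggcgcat

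Ngfr, with 70.9% G and C, had 3 matches to the GC box GGGCGG, the site bound by Sp1, starting 114, 72 and 63 bases before the start. The windows of Gdnf (50.8% G and C) and Ntrk2 (62.8%) held none of the motifs searched. The median over all 32817 windows of 250 bases was 52.4%. Searched on both strands were GGGCGG, found in 32.7% of those windows, TGANTCA of AP-1 (6.75%), TGACGTCA of CREB (1.55%), TTCNNNGAA of STAT factors (7.01%), GCGTGGGCG of EGR factors (0.54%) and GGAATG of TEAD factors (12.6%). A GCGTGGGCG match followed by G also holds GGGCGG. The other Gdnf start held no match either. Of the 7 Bdnf starts, the first held TTCNNNGAA and the next the AP-1, GC box and TEAD motifs, and 2 others held a GC box or a TEAD motif. A match is a string of letters and not a bound site.

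The rest of the family also split. Of 14 further ligands and receptors 9 were tested, with 2 higher and 5 lower and a median log2 change of −0.45, against −0.08 over all genes tested. For this list and those below, the shares over all genes tested were 26.7% higher and 30.8% lower.

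Among the receptors of precursors, sortilin and its relatives went both ways. Sort1, which encodes sortilin, the partner of p75 for uncut neurotrophins, fell from 101 ± 5.34 to 49.9 ± 9.18 FPKM (log2 change −1.01, SE 0.13, limma adjusted p = 8.1e-04). Sorcs1 (−0.84) and Sorcs3 (−0.99) fell with it, while Sorcs2, which can also pair with p75, rose from 7.91 ± 0.367 to 14.7 ± 1.83 (0.81, limma adjusted p = 8.5e-04).

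Among the other receptors of GDNF ligands, Gfra4, the co-receptor of persephin, fell from 23.9 ± 3.42 to 11.6 ± 3.27 FPKM (log2 change −1.02, limma adjusted p = 0.0046). Gfra2, the co-receptor of neurturin, had a change of −0.45 that did not pass (95% interval −0.97 to 0.08), and one of −0.18 without SCI replicate 2. Sdc3, a heparan sulfate proteoglycan that binds GDNF, rose from 119 ± 7.02 to 220 ± 9.30 (0.88, limma adjusted p = 1.3e-04). Ncam1, which can carry GDNF signals without Ret, fell by 0.36 on the log2 scale (adjusted p = 0.027), a call that ended without sham replicate 1 (adjusted p = 0.093) or sham replicate 3 (0.070).

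The other ligands described here were low. Nrtn (neurturin) was at 1.49 to 3.96 FPKM over the 6 libraries and did not pass (log2 change 0.08, and below 0 without sham replicate 3 or SCI replicate 3). Artn (artemin) and Pspn (persephin) were at no more than 0.89 and 2.23 FPKM. Ntf5 (neurotrophin-4) was at no more than 0.06, and Gfral was at 0 in all 6 libraries. Gfra3, the co-receptor of artemin in sensory neurons, did not exceed 0.15 in sham, and the SCI replicates gave 0.45, 0.68 and 1.82. Gfra3 was thus highest in the library with the most sensory ganglion transcripts.

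Genes that cut neurotrophin precursors, or control the cutting, had 3 of 9 tested members higher and 3 lower (median log2 change 0.07). Plat, the plasminogen activator tPA, rose from 16.6 ± 1.70 to 43.2 ± 6.63 (1.32). Mmp3, a matrix protease, was at no more than 0.17 FPKM in sham and rose to 2.32 ± 1.03 (1.61). Like Gdnf, it met the filter for testing only through its SCI libraries. Furin, the convertase that cuts precursors inside the cell, was named after its values were seen, and rose from 5.42 ± 0.438 to 18.2 ± 4.13 (1.56). The 3 lower members, also named after their values were seen, were Serpini1, Pcsk1 (−0.85) and Pcsk6 (−0.80). Serpini1 fell from 38.3 ± 1.43 to 15.7 ± 4.73 FPKM (−1.28).

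Adaptors of the Trk and Ret kinases had 8 of 25 tested members higher and 7 lower (median −0.06), near the shares over all genes tested. Dok1 (2.34) and Shc1 (1.32), docking proteins of many receptors and of immune cells among others, rose most. Grb2, the most abundant at 84.4 to 99.0 FPKM, had a change of −0.09 (0.01 under median-ratio scaling) and Ptpn11 one of 0.09, and neither passed. Markers of microglia and macrophages were higher in 8 of 8 cases, none was at 0, and their sums were 229 to 286 FPKM (sham) and 2261 to 3532 (SCI). Their part in these changes was not tested.

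Partners of p75 had 9 of 20 members higher and 5 lower (median 0.18), with 3 lower without sham replicate 1. Arhgdia, the RhoGDI that p75 is known to displace from RhoA, rose 2.11-fold to 457 ± 26.2 FPKM (1.08, limma adjusted p = 6.6e-05). Lingo1, the co-receptor of p75 for myelin inhibitors, fell 2.61-fold, from 20.8 ± 1.19 to 7.97 ± 1.66 (limma adjusted p = 3.3e-04). Maged1, which binds the inner part of p75, fell from 264 ± 16.1 to 177 ± 25.9 (−0.59).

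Genes that respond to the ERK pathway, which Trk and Ret kinases share with many other receptors, had 12 of 18 members higher and 1 lower (median 0.70), with 2 lower without sham replicate 2. Dusp5, a phosphatase of ERK, changed most (2.89, limma adjusted p = 7.6e-04), followed by the transcription factor Fos (2.63). Vgf, a neuropeptide precursor, rose from 75.4 ± 7.88 to 165 ± 41.5 FPKM (1.10). Spred1, an inhibitor of the pathway, missed the threshold with a change of 0.18. Leaving out SCI replicate 2 (0.20) or median-ratio scaling (0.27) brought it past.

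**Figure D5:**
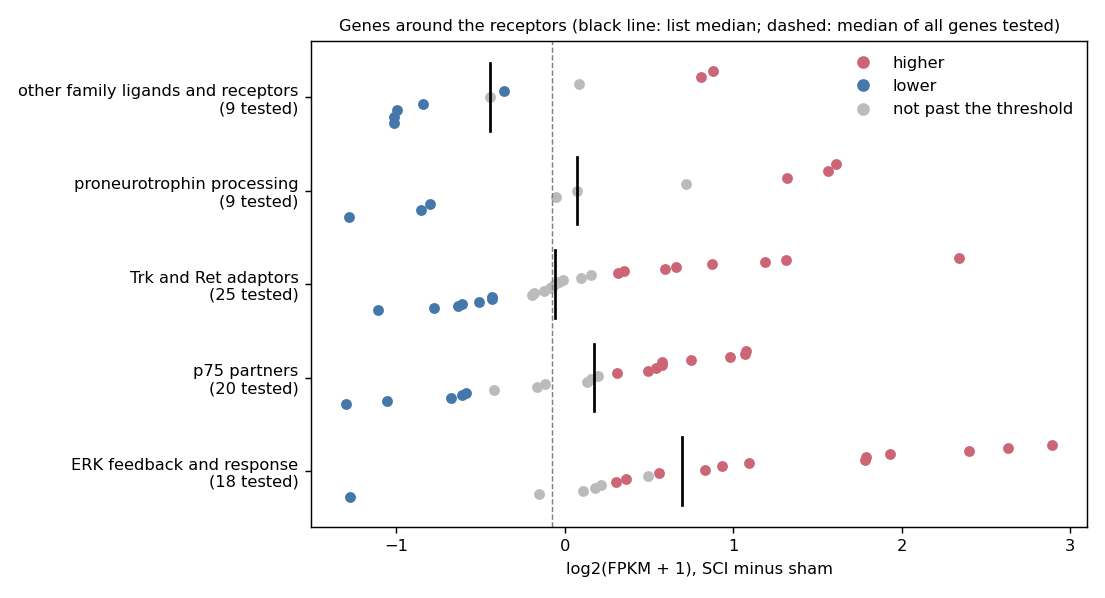
Change in log2(FPKM + 1), SCI minus sham (x axis), of the tested genes in 5 lists around the receptors; each point is a gene, coloured by its call, the black line is the median of the list and the dashed line the median of all genes tested (−0.08). The ERK response list has its median at 0.70 and 1 gene on the lower side past the threshold, and the other lists hold called genes on both sides.

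The genes with the most similar pattern over the 6 libraries were found by the root mean square difference of log2(FPKM + 1), each gene centred on its own mean, among genes of at least 5 FPKM. For Gdnf they were Hmga2 (0.18), a chromatin protein, which was at 7.59, 16.1 and 5.73 FPKM in SCI replicates 1, 2 and 3, and Inhba (0.22), a subunit of activin. For Ngfr they were Mrc1 (0.21), a mannose receptor of macrophages, and Gm5637 (0.22). For Gfra1 they were Snx18 (0.06) and Slc10a3 (0.06). The pairs were Tsr2 (0.02) and Amotl2 (0.03) for Ntrk2, Dis3l (0.03) and Evl (0.03) for Ntrk3, Rnf182 (0.08) and Ipo13 (0.09) for Bdnf, and Gm3724 (0.08) and 4933434E20Rik (0.09) for Ret. With 6 libraries in 2 groups such likeness is a description of these samples.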

How the data were processed

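RNA-seq values of 3 sham and 3 SCI libraries were used as the authors deposited them: FPKM per gene, to 2 decimals, per the file headers. Named without role or order in the submitters' processing notes are StringTie 1.3.4d, HISAT2 2.0.4, cutadapt 1.9, edgeR, DESeq2 and UMI-tools. They also name the build mm9, but of 36502 gene identifiers shared with GENCODE M21, 33485 (91.7%) had its GRCm38 coordinates. Neither strand setting nor read depth is known. Low values showed no steps of whole reads: no log2 ratio bin of width 0.05 held more than 3.81% of low genes.

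Libraries were grouped by title. The 17435 genes reaching 1 FPKM in 3 or more libraries were tested in limma 3.58.1 (R 4.3.3) on log2(FPKM + 1) with a mean-variance trend and group as the term, two-sided, with Benjamini-Hochberg adjustment. The test was checked on simulated data. The 8 genes, the 7 pathway lists, the 13 marker lists and the motifs were chosen with earlier results of these data known. Named were the 8 genes, the rest of their family, per pathway list the 2 of largest change past the threshold and the 2 of highest mean FPKM, per marker list the 2 of highest mean FPKM, and the 2 genes most like each tested member. Some genes of the lists are not reported here and are left out of the printed counts, medians, sums and plots of their lists. Most marker lists are given by their sums only. Alternatives were other pseudocounts, filters, scalings and variance models, a replicate block and leaving out each library.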

Additional observations from a re-analysis of the deposited data

How the results depend on the processing

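The calls on Gdnf, Ngfr, Gfra1, Ntrk2 and Ntrk3 kept their direction and their side of the threshold under every alternative run: pseudocounts of 0.1 and 0.5, 2 other filters, 3 other scalings, limma without the trend or with library weights, the replicate block, and each library left out. Ret passed without SCI replicate 3 (−0.49; range without 1 library −0.49 to −0.086). Bdnf changed sign under median-ratio scaling (0.024), with library weights (0.14) and without SCI replicate 2 (0.21; range −0.19 to 0.21). Nrtn changed sign under quantile normalization (−0.011), with library weights (−0.052), and without sham replicate 3 (−0.15) or SCI replicate 3 (−0.0029; range −0.15 to 0.34), and Grb2 under median-ratio scaling (0.0092). Lower p75 partners numbered 3 to 6 and lower ERK response genes 1 to 2 over the libraries left out. The log2 ratio of Gdnf to Gfra1 was 1.98 with 1 FPKM added and 6.24 with 0.01, since sham values are near 0. Ntrk2 to Ntrk3 was −0.0017 with 1 FPKM added (range without 1 library −0.017 to 0.095), and Ntf3 to Ntrk3 ranged from −0.44 to 0.49. The cause of these shifts was not tested.

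Replicate numbers are shared between the groups, but same-numbered libraries did not deviate together (r of −0.008, −0.039 and 0.022). No pairing by number was thus seen, though 3 libraries per group cannot exclude one. With the replicate as a block, 9443 genes passed in place of 10024, the 8 genes again gave 3 higher and 2 lower, and Gfra2 passed (−0.45, adjusted p = 0.036). Not every library correlated best with its own number. Without read counts, the precision of low genes such as Ntf3 cannot be stated.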

Other observations

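Trophic factors outside these families were also measured in a list of 10, of which 4 were higher and 4 lower (median log2 change −0.04). Clcf1, a cytokine that acts through the CNTF receptor, rose from 1.95 ± 0.497 to 44.1 ± 24.5 FPKM (3.81, limma adjusted p = 1.9e-04). Fgf2, a fibroblast growth factor that astrocytes can make, rose from 6.40 ± 1.15 to 25.3 ± 2.68 (1.84). Fgf1, a fibroblast growth factor known from motor and sensory neurons, fell from 137 ± 5.73 to 76.1 ± 8.51 (−0.84). Ptn (pleiotrophin) fell from 85.9 ± 15.0 to 57.8 ± 10.8 (−0.57, limma adjusted p = 0.024), a call lost on leaving out sham replicate 1 (adjusted p = 0.051) or sham replicate 3 (0.078), or with no filter on low values (0.058).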
